A study of Homo sapiens with 40 samples.

Results

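COXFA4L3 (older symbol C15orf48) was followed in AG01522 cells, a human skin fibroblast culture, after X-irradiation. The gene was chosen by the fall of its log2 level from sham after irradiation in these same arrays, so its levels and its differences from sham are given as a description without a test. It was 1 of 18244 genes measured, and 1 probe set of the PrimeView array was annotated to it and to no other gene. Cells were grown to confluence and irradiated with 5 cGy (the priming dose) or with 2 Gy (the challenging dose), or with both 12 h apart, called the (5 cGy + 2 Gy) group. RNA came from 3 biological replicates per treatment at each of 4 times (3, 6, 12 or 24 h past the last dose), and from 4 sham replicates that received 0 Gy, giving 13 groups and 40 arrays. All groups came from this 1 culture, and nothing given with the data says whether replicates were separate thaws or passages. The sham cells were collected at a single time labelled as baseline, so time after irradiation and time in confluent culture cannot be told apart in any comparison with sham. Levels are log2 intensities, on which a difference of 1 is a doubling, and they cannot tell fewer expressing cells from less RNA per cell.

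COXFA4L3 encodes a small mitochondrial protein that is induced in inflamed epithelium and in activated macrophages. It is a paralog of COXFA4 (older symbol NDUFA4), a subunit of cytochrome c oxidase, which is complex IV of the respiratory chain and passes electrons to oxygen. The induced protein can take the place of COXFA4 in that complex. The transcript also carries the hairpin of a microRNA, miR-147b, a relative of the mouse miR-147 that dampens inflammatory signalling in macrophages. The mature microRNA is shown because a reader of this transcript may take it for a measure of the microRNA. It is given from RefSeq, 5′ to 3′, with the seed (bases 2 to 8) in capitals.
hsa-miR-147b-3p: gUGUGCGGaaaugcuucugcu
Its 21 bases lie at chr15:45433098-45433118 on the + strand of GRCh38.p14, inside COXFA4L3 (chr15:45430610-45433340), and end 222 bases before the end of the gene. The arrays used here measured the host transcript and not this microRNA.

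COXFA4L3 was high in sham cells and lowest 24 h after irradiation, whichever dose was given. The 4 sham arrays read 9.74, 9.51, 9.64 and 9.70 (mean 9.65 ± 0.10, SD, n = 4). The highest of the 40 arrays (9.86, 2 Gy at 3 h) and the lowest (7.72, 5 cGy at 24 h) were 4.40-fold apart. The SD within groups, pooled over the 13 groups, was 0.17. Of the 36 irradiated arrays, 31 lay below the lowest sham array, and in 9 of the 12 irradiated groups every array did. The 3 groups that reached into the sham range were those at 3 h.

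After the priming dose alone the gene stood at the sham level at 3 h and fell at each later time. The 5 cGy arrays at 3 h read 9.68, 9.49 and 9.82, a difference of 0.01 ± 0.13 (SE) from sham. At 6 h they read 9.45, 9.47 and 9.40, all just under the sham arrays. At 12 h they read 8.90, 8.64 and 8.75, which was 0.88 below sham on average. These arrays did not overlap with those at 6 h, and the level was 54.2% of that of sham. At 24 h they read 7.72, 8.12 and 8.26, a difference of -1.62 ± 0.13 from sham, or 32.6% of its level. Only 5 of the 18244 genes differed from sham by a larger fall, at 12 h and again at 24 h, which is a value that the choice of the gene made likely.

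After the challenging dose alone the course was similar up to 12 h. The 2 Gy arrays at 3 h read 9.79, 9.50 and 9.86, a difference of 0.06 ± 0.13 from sham. At 6 h they read 9.29, 9.40 and 9.48, and at 12 h 8.59, 8.60 and 8.66, the latter a difference of -1.04 ± 0.13 from sham. The 12 h arrays lay close together, with an SD of 0.04, as did the 5 cGy arrays at 6 h. At 24 h they read 7.96, 8.37 and 8.51, a difference of -1.37 ± 0.13 or 38.8% of the sham level. The array at 7.96 stood apart in RNA quality. Its 3′ probe set for GAPDH, a housekeeping gene, exceeded the 5′ one by 1.05, against 0.23 to 0.42 in the 37 arrays other than it and a pair of 2 Gy arrays at 3 h (0.63 and 0.68). Without it the 24 h difference from sham was -1.21, and with this GAPDH difference as a covariate it was -1.25.

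After both doses the gene was already a little lower at 3 h, and it ended at a similar level. The (5 cGy + 2 Gy) arrays at 3 h read 9.59, 9.25 and 9.43, a difference of -0.23 ± 0.13 from sham, with 1 of the 3 inside the sham range. At 6 h they read 9.13, 9.26 and 9.23, all below sham, with a difference of -0.44 ± 0.13. At 12 h they read 8.76, 8.69 and 8.65, a difference of -0.95 ± 0.13. At 24 h they read 7.81, 8.32 and 8.38, a difference of -1.48 ± 0.13 or 35.8% of the sham level. Replicate 1 was the lowest array at 24 h in each of the 3 treatments, by 0.40, 0.41 and 0.51 below the next one, in the order 5 cGy, 2 Gy and both doses. Without it, the 24 h difference was -1.46 in the 5 cGy group and -1.30 in the (5 cGy + 2 Gy) group. Its GAPDH difference was 0.33 and 0.32 in these groups, within the range of the other arrays. At 3 h replicate 2 was the lowest in all 3 treatments, and in the sham group as well.

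**Figure D1:**
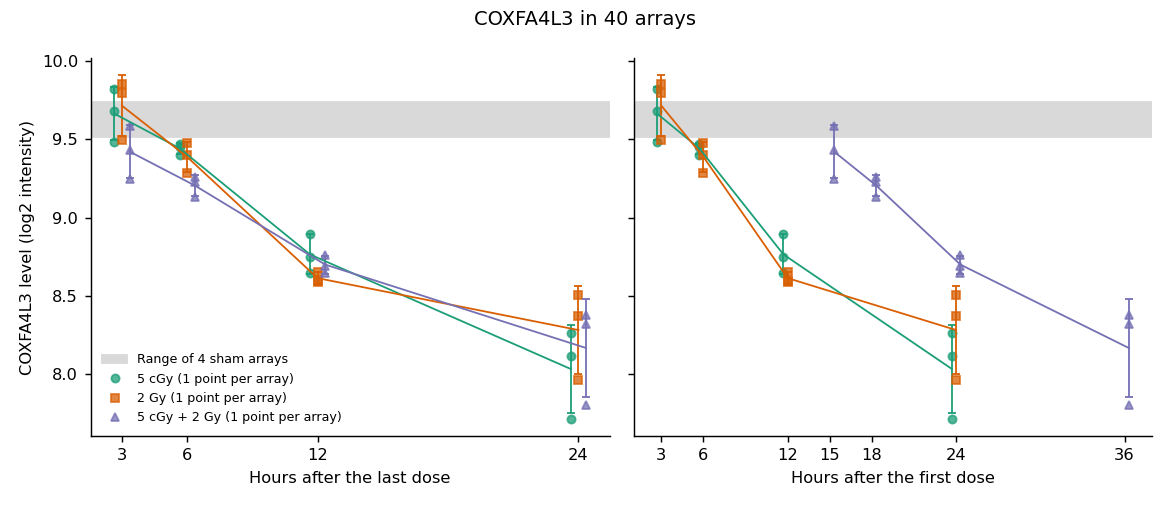
Level of COXFA4L3 (log2 intensity) in each array against hours after the last dose (left) and after the first dose (right); points are arrays, lines join group means, bars are ± SD (n = 3) and the grey band is the range of the 4 sham arrays. On the left the 3 treatments run together from 9.42 to 9.71 at 3 h down to 8.03 to 8.28 at 24 h, and on the right the (5 cGy + 2 Gy) points lie apart from the other 2 courses.

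Ordered by mean, the groups ran from 2 Gy at 3 h (9.71) and 5 cGy at 3 h (9.66) through sham (9.65) to the 3 groups at 24 h. Of the 12 pairs of neighbours in that order, 8 overlapped in their arrays. Those that did not overlap were sham (9.65) and 5 cGy at 6 h (9.44), 2 Gy at 6 h (9.39) and both doses at 6 h (9.21), both doses at 6 h and 5 cGy at 12 h (8.77), and 2 Gy at 12 h (8.61) and 2 Gy at 24 h (8.28). The 3 groups at 12 h were therefore next to each other in the order, as were the 3 at 24 h. Within them no neighbours differed beyond their spread.

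The means fell fastest between 6 and 12 h in each treatment, by a margin that was not tested. In that interval the means changed by -0.11 log2 per hour after 5 cGy, -0.13 after 2 Gy and -0.08 after both doses. Between 3 and 6 h they changed by -0.07, -0.11 and -0.07 log2 per hour, and between 12 and 24 h by -0.06, -0.03 and -0.04 log2 per hour. In 8 of the 9 steps from 1 time to the next the arrays did not overlap, the exception being 3 to 6 h after both doses.

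The arrays lined up by time since the last dose more closely than by time since the first. A straight line on hours since the last dose left a residual SD of 0.22 over the 36 irradiated arrays, and a line on hours since the first dose left 0.35. The 24 arrays with a single dose have the same time on both scales, so the gap comes from the 12 arrays that received both doses. The cells primed with 5 cGy stood at 8.90, 8.64 and 8.75 at 12 h, when the challenging dose was due in the (5 cGy + 2 Gy) group. At 3 h after that dose, 15 h after the first, the arrays of that group stood at 9.59, 9.25 and 9.43. These 3 arrays were all higher than the 3 primed ones, by 0.66 on average, a pair of groups that was picked after their values were seen. What else was done to the dishes at the second exposure was not tested.

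Groups at the same time after the first dose were also set side by side, though not as independent evidence, since these cells were 12 and 24 h past their last dose and the fall that chose the gene sets the direction. At 24 h after the first dose the cells with both doses read 8.76, 8.69 and 8.65, and those with 5 cGy alone read 7.72, 8.12 and 8.26, without overlap. The level was 1.59-fold higher after both doses (difference 0.67 ± 0.14, 95% interval 0.38 to 0.95, limma), and this was the 31st largest rise among all genes. The adjusted p over all genes was 0.146. An exact two-sided permutation test over the 3 and 3 arrays gave p = 0.1, the smallest this design allows. With equal array weights and no replicate term, no gene passed an adjusted p of 0.05 in this comparison (0% of those tested). At an unadjusted p under 0.05 there were 1004 by limma. With array quality weights the adjusted p of COXFA4L3 was 0.0326, and 27 genes passed.

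Whether the priming dose altered the response to the challenging dose was asked by setting the (5 cGy + 2 Gy) group against 2 Gy at the same time after the last dose, a comparison the choice of the gene did not use. COXFA4L3 differed by -0.29 ± 0.14 at 3 h (95% interval -0.58 to -0.01), where the arrays overlapped and the adjusted p was 0.945. At 6 h it differed by -0.18 (95% interval -0.47 to 0.10) with no overlap between the arrays. At 12 h it differed by 0.09 (-0.20 to 0.37) and at 24 h by -0.11 (-0.40 to 0.17). Without replicate 1 of the (5 cGy + 2 Gy) group the 24 h value turned to 0.07, and without replicate 1 of the 2 Gy group it was -0.27. The exact two-sided permutation p was 0.2, 0.1, 0.2 and 0.6 in that order. With 3 and 3 arrays 0.1 is the smallest it can be, so no single time could pass 0.05 by it. Averaged over the 4 times the difference was -0.13 ± 0.07 (95% interval -0.27 to 0.02), with an adjusted p of 0.976 and an exact permutation p of 0.111 when labels were exchanged within times. None of these passed the test, and a difference of up to about 0.27 in the average lies inside the interval. With equal array weights and no replicate term, 0% of all genes passed at 3, 6, 12 and 24 h and in the average. At an unadjusted p under 0.05 by limma there were 953, 657, 203, 354 and 932. With array weights 7, 0, 0, 0 and 5 genes passed. The GAPDH difference was higher in the 2 Gy arrays at 3 h (0.63, 0.68 and 0.38) than in the (5 cGy + 2 Gy) arrays (0.29, 0.35 and 0.25). With it as a covariate the 3 h difference was -0.45, and it still missed the threshold.

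The 2 single doses, which differ 40-fold, were compared in the same way. Per the paper's methods they were also given at different tube voltages, currents and dose rates, so dose is not the only difference. COXFA4L3 after 2 Gy differed from that after 5 cGy by 0.05 at 3 h, -0.06 at 6 h, -0.15 at 12 h and 0.25 ± 0.14 at 24 h (95% interval -0.04 to 0.53). The 2 Gy arrays at 24 h include the one with a GAPDH difference of 1.05. Over its 13 alternatives the 24 h value ran from 0.09 to 0.41. The arrays overlapped at each time, and the exact two-sided permutation p was 0.7, 0.6, 0.2 and 0.4, with 0.1 the smallest possible. Averaged over times the difference was 0.02 ± 0.07 (95% interval -0.12 to 0.17, exact permutation p = 0.763). The share of all genes that passed was 0.0274%, 0.0274%, 0.011% and 0.175% at the 4 times, and 0.23% in the average. With array weights 3, 11, 3, 111 and 78 genes passed, against 5, 5, 2, 32 and 42 with equal weights. The sign at 3 h and in the average turned when single arrays were left out, to -0.04 at 3 h without replicate 2 of the 5 cGy group and to -0.02 in the average without replicate 1 of the 5 cGy group at 24 h. The change from 3 to 24 h did not pass the test between any pair of treatments. It differed by 0.20 ± 0.20 between 2 Gy and 5 cGy, by 0.18 ± 0.20 between both doses and 2 Gy, and by 0.38 ± 0.20 between both doses and 5 cGy (95% interval -0.03 to 0.78, adjusted p = 1.00 by limma). In these 3 comparisons 0%, 0% and 0.0164% of genes passed, with 1678, 505 and 749 at an unadjusted p under 0.05, and 15, 0 and 99 genes passed with array weights. In all, 14 comparisons of the gene were tested, and none passed an adjusted p of 0.05 with equal array weights and no replicate term. For both doses at 12 h against 5 cGy at 24 h, the fall that chose the gene sets the direction.

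**Figure D2:**
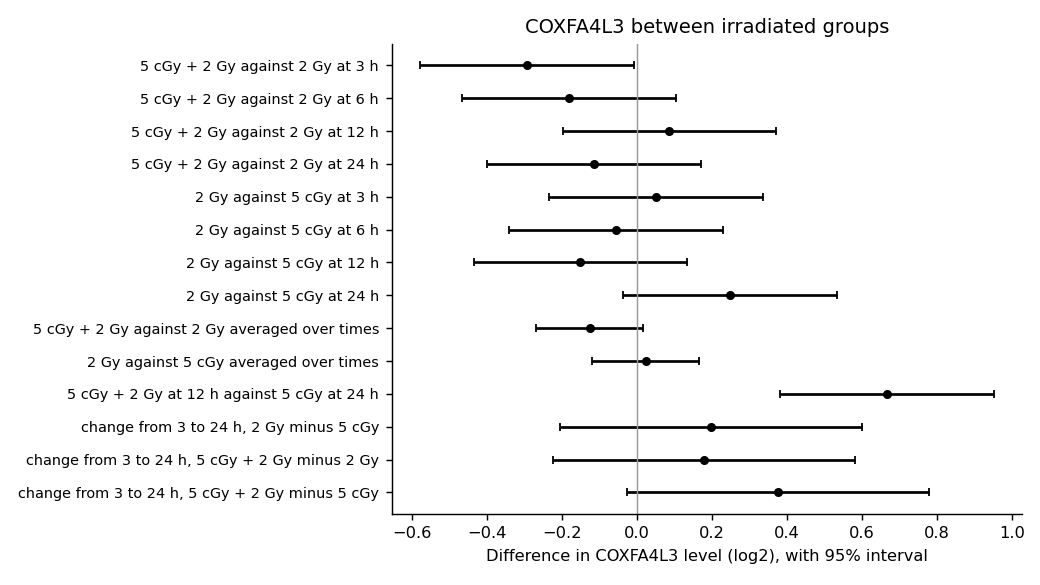
Differences in COXFA4L3 level (log2, horizontal axis) for the 14 tested comparisons between irradiated groups, with 95% intervals from the limma fit over 40 arrays. The interval for both doses at 12 h against 5 cGy at 24 h runs from 0.38 to 0.95, that for both doses against 2 Gy at 3 h ends at -0.01, and the others include 0.

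The subunit that COXFA4L3 can replace showed no change past the test. COXFA4 was among the brightest genes, at 13.49 in sham, and its difference from sham lay between -0.05 and 0.10 in the 12 irradiated groups. The other paralog, COXFA4L2, a subunit-like protein induced by low oxygen, was dim at 4.86 in sham. Its largest difference was 0.40 ± 0.12 at 6 h after 2 Gy (adjusted p = 0.250, limma). Differences between probe sets in brightness do not compare the amounts of these transcripts.

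The listed subunits of complex IV changed little at 24 h. The list held none of those encoded in the mitochondrial genome. In the 5 cGy group 2.13% of all genes rose and 0.976% fell against sham (adjusted p under 0.05, limma), after 2 Gy 3.8% rose and 2.25% fell, and after both doses 5.86% rose and 4.05% fell. Of the 19 complex IV subunits, all measured, none passed after 5 cGy or 2 Gy. At an unadjusted p under 0.05 (limma), 1, 3 and 5 were higher after 5 cGy, 2 Gy and both doses, and 0 were lower. Of all 18244 genes, 1902, 2179 and 2388 were higher and 965, 1272 and 1718 lower at that level. COX6B1, a subunit on the outer face of the oxidase, rose after both doses, by 0.28 ± 0.07 (adjusted p = 0.00871). COX7A1, the subunit form known from muscle, had the largest difference in the list, 0.31 ± 0.11 after both doses, and did not pass (adjusted p = 0.0660). The median of the list was 0.05 in each treatment, against medians over all genes of 0.03, 0.02 and 0.01. COX7B2, COX8C, COX4I2 and COXFA4L2 were dim in sham (2.88, 4.07, 4.69 and 4.86), where a fall could hardly show.

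Proteins that build complex IV gave a few small rises. Of 26 assembly factors 24 were measured, and 0, 1 and 3 of them rose after 5 cGy, 2 Gy and both doses, while none fell. These are 0%, 4.17% and 12.5%, against 2.13%, 3.8% and 5.86% of all genes. At an unadjusted p under 0.05 (limma), 4, 5 and 6 were higher and 2, 2 and 1 lower. COX14, which acts on the translation of the first core subunit, rose by 0.32 ± 0.10 after 2 Gy and by 0.42 ± 0.10 after both doses. COA5 and COA7, a pair of assembly factors, rose by 0.44 ± 0.13 and 0.31 ± 0.07 after both doses. HIGD1A, a small protein of the inner membrane that responds to low oxygen, read -0.48 ± 0.25 there and LRPPRC, which stabilises mitochondrial messages, 0.40 ± 0.21, and neither passed. The list's medians were -0.01, 0.05 and 0.02. Of 37 listed subunits of complex I, the entry point of the chain, 36 were measured, and 0, 1 and 2 rose. These are 0%, 2.78% and 5.56%, no more than the 2.13%, 3.8% and 5.86% of all genes. This list too held no subunit encoded in the mitochondrial genome. At an unadjusted p under 0.05 (limma), 0, 4 and 8 were higher and 0, 0 and 1 lower. NDUFB1 rose by 0.24 ± 0.07 after 2 Gy and by 0.23 ± 0.07 after both doses, and NDUFB8 by 0.37 ± 0.12 after both doses, both of them accessory subunits. Medians there were 0.02, 0.10 and 0.10.

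At 24 h more genes of the inflammatory response were lower than higher before adjustment, and few passed the test. NF-kB is the transcription factor that switches on cytokine genes in inflammation, and 28 of the 30 listed targets and cytokines were measured. CXCL8, a neutrophil chemokine, fell by 1.11 ± 0.30 after 5 cGy (adjusted p = 0.0308), and read -0.80 and -0.88 after 2 Gy and both doses without passing. CXCL5, a related chemokine, fell by 1.43 ± 0.34 after both doses, and PTGS2, the inducible enzyme of prostaglandin synthesis, by 1.37 ± 0.39. CCL7, a monocyte chemokine, rose by 1.14 ± 0.33 in the same group. Thus 0 rose and 1 fell after 5 cGy, 0 and 0 after 2 Gy, and 1 and 2 after both doses. The rises are 0%, 0% and 3.57% of the list, against 2.13%, 3.8% and 5.86% of all genes. The falls are 3.57%, 0% and 7.14%, against 0.976%, 2.25% and 4.05%. At an unadjusted p under 0.05 (limma), 7, 9 and 7 of the listed genes were lower and 1, 1 and 2 higher. Of all 18244 genes, 965, 1272 and 1718 were lower and 1902, 2179 and 2388 higher at that level. The medians of the list were -0.21, -0.10 and -0.13, lower than those of all genes. COXFA4L3, at -1.62, -1.37 and -1.48, was below all measured members of the list in each treatment, which reached down to -1.11, -0.93 and -1.43. The choice of the gene by its fall made this likely. After both doses the gap to CXCL5 (-1.43 ± 0.34) was smaller than the SE of either gene.

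**Figure D3:**
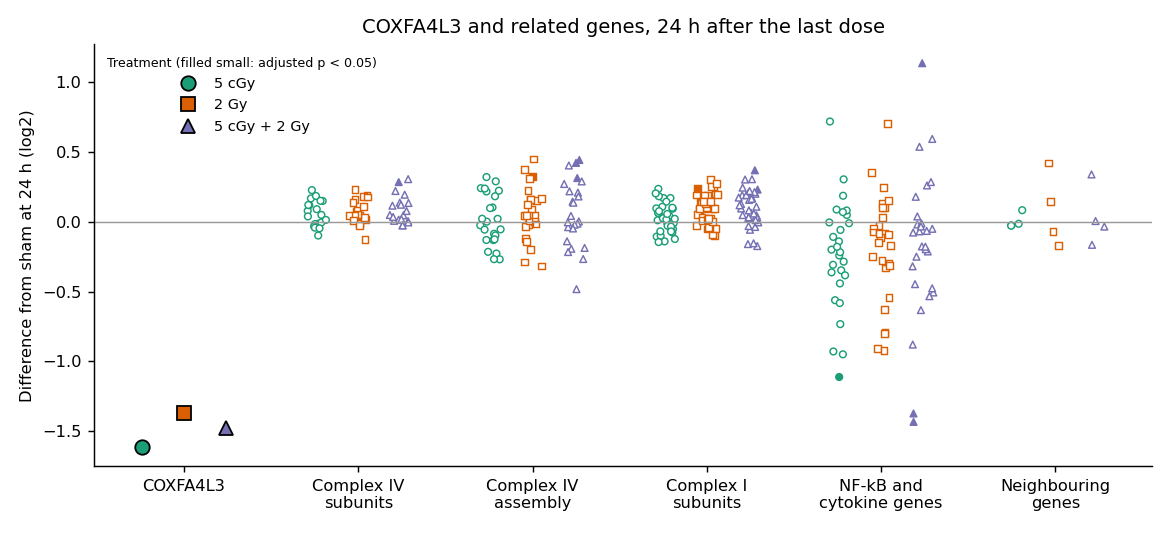
Difference from sham 24 h after the last dose (log2, vertical axis) for COXFA4L3 (large symbols) and for each measured member of 5 gene lists (small symbols, filled where the adjusted p was under 0.05), by treatment. COXFA4L3 lies at -1.37 to -1.62, complex IV and complex I subunits lie between -0.17 and 0.37, and the NF-kB and cytokine genes between -1.43 and 1.14.

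The genes beside COXFA4L3 on chromosome 15 did not pass the test at 24 h, adjusted or not. Of the 3 annotated on each side, 4 were measured. Their differences from sham ranged from -0.17 for SLC30A4, a zinc transporter, to 0.42 ± 0.24 for BLOC1S6, a subunit of a complex that forms lysosome-related organelles, both after 2 Gy. AFG2B, an ATPase, and GATM, an enzyme of creatine synthesis, stayed within -0.07 to 0.14.

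Defining markers of the cell types that COXFA4L3 is known from, epithelium and macrophages, were mostly dim, while KRT10 and CD68 of the same lists were bright. All 12 fibroblast markers had means of 8.92 to 14.57, as the label says of these cells. At 24 h 2, 1 and 1 of them rose after 5 cGy, 2 Gy and both doses, the growth factor receptor PDGFRB in each. These are 16.7%, 8.33% and 8.33%, against 2.13%, 3.8% and 5.86% of all genes. The epidermal keratins KRT5 and KRT14 had means of 4.57 and 6.05 and CDH1, which joins epithelial cells, 3.79, but KRT10, a keratin of differentiated epidermis, had 10.37 and SFN 7.03. Of 13 keratinocyte markers 9 were measured and none passed at 24 h (1 in each treatment at an unadjusted p under 0.05), with medians of -0.10, -0.08 and -0.06. Their summed intensity was 1508 to 1798 in the sham arrays and 1423 to 1643 over the 24 h groups, with KRT10 the brightest member at differences of -0.17, -0.10 and -0.14 from sham. Of 12 macrophage and leukocyte markers 11 were measured, with PTPRC, CD14 and LYZ at means of 3.18, 4.19 and 3.16. CSF1R and TYROBP had 5.91 and 6.35, above the array medians of 5.62 to 5.70. The summed intensity of the 11 was 462 to 704 in sham and 590 to 766 at 24 h. Its brightest member was CD68, a lysosomal protein that fibroblasts also carry, at 8.19 in sham, with differences of 0.33, 0.62 ± 0.21 and 0.56 ± 0.21 at 24 h (adjusted p = 0.479, 0.0669 and 0.0801, limma). CD3E alone rose, by 0.39 ± 0.09 after 5 cGy, which is 9.09% of the 11 against 2.13% of all genes. CD3E was dim, at 5.29 in sham, and differed by 0.03 and 0.06 after 2 Gy and both doses. Of 5 endothelial markers TEK fell after both doses, by 0.83 ± 0.18, which is 20% of the list against 4.05% of all genes. None of the 5 measured melanocyte markers passed. The part of the keratinocyte or leukocyte levels in the fall of COXFA4L3 was not tested.

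Some genes followed the same course through the 40 arrays. The 10 with the highest Pearson r with COXFA4L3 had r between 0.82 and 0.86, and the 11th also had 0.82, so the end of the list is not a boundary. They were IPPK, which makes inositol hexakisphosphate, CFAP20, a ciliary protein, DYNLT1, a dynein light chain, HSPA8, a constitutive chaperone, MCM6, a subunit of the replicative helicase, GRAMD2B, ID4, an inhibitor of bHLH factors, MAP2K3, an activating kinase of p38, PLPP5, a lipid phosphatase, and SFXN2, a mitochondrial carrier. Their differences at 24 h were smaller than that of COXFA4L3 after 5 cGy, from -0.20 ± 0.07 (CFAP20) to -1.24 ± 0.28 (ID4). After 2 Gy ID4 read -1.48 and MCM6 -1.35, next to -1.37 for COXFA4L3, and after both doses they read -1.62 and -1.46, next to -1.48. The most opposite genes were APCDD1, an inhibitor of Wnt signalling, at r = -0.92, and RAB29, a small GTPase, at -0.89, followed by OLFML2B, KIAA0513 and NHSL3 at -0.86 to -0.85. APCDD1 rose by 1.14, 1.05 and 1.10 at 24 h in the 3 treatments. In all, 17 genes had r above 0.8 and 38 below -0.8. These values describe 13 groups that share sham and the same time course. Within groups, where the arrays' deviations from their group mean were used, CFAP20 had r = 0.56 and ID4 0.49. The other 8 lay between -0.25 and 0.11. These 10 were picked by r over the same arrays, which includes the deviations, so the values within groups are not independent evidence.

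**Figure D4:**
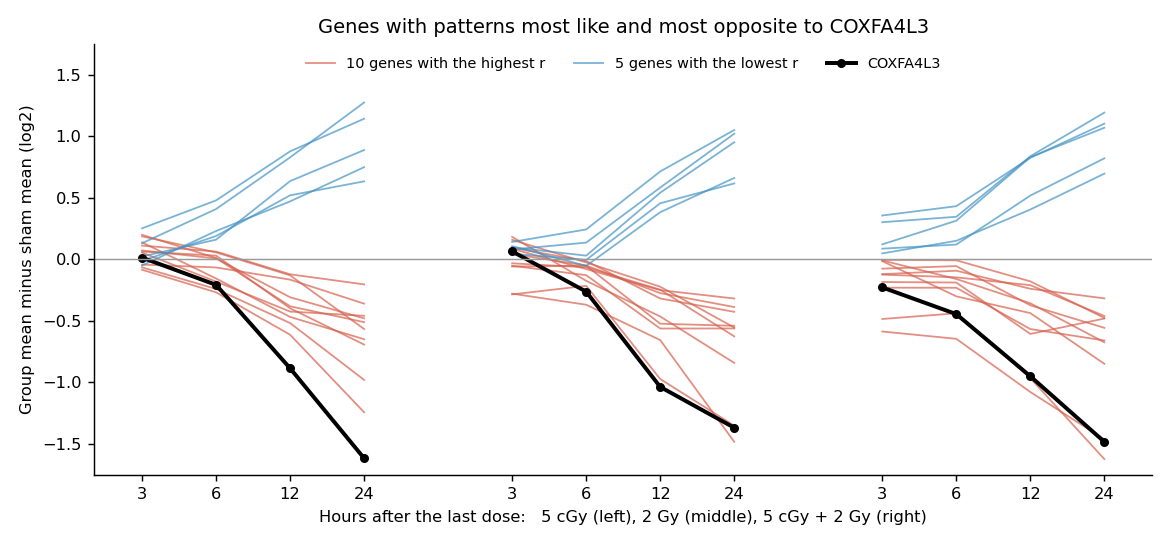
Group mean minus sham mean (log2, vertical axis) by hours after the last dose (evenly spaced) in 3 blocks for 5 cGy, 2 Gy and both doses, for COXFA4L3 (black), the 10 genes with the highest and the 5 with the lowest Pearson r over 40 arrays. COXFA4L3 ends at -1.62, -1.37 and -1.48, below 9 of its 10 most alike genes in the block for both doses, where ID4 ends at -1.62.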

How the data were processed

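The authors deposited log2 intensities from the PrimeView array, 1 value per probe set and array, made with RMA (background adjustment and quantile normalization) per the labels; the methods also name a custom probe mapping by Entrez gene, but the deposited table has the maker's probe set names. It holds 49495 probe sets, of which 45278 have 1 gene symbol, 1333 several and 2884 none; array medians were 5.62 to 5.70 and no 2 arrays were identical. Arrays have no read depth, and their number limits the precision. Gene names came from the platform annotation. The probe set with the highest mean stood for a gene, which gave 18244 genes. One limma fit (limma 3.58.1, R 4.3.3) with a mean per group over the 40 arrays had 27 residual degrees of freedom. P-values were adjusted over all genes of a comparison (Benjamini-Hochberg), and exact permutation tests were two-sided. P-values measure only the spread between these samples. The script was tested on simulated data. The members, lists and comparisons were chosen with earlier results of these data known. Named were COXFA4L3, its paralogs, up to 4 members of a list with the largest change, and the genes ranked by r; COA7, NDUFB1, CD3E, TEK and PDGFRB were named after their values were seen because they passed the test. Alternatives were another normalization, array weights, gene summary, a filter, fewer arrays, a replicate block, leaving out arrays and, chosen after seeing the data, a GAPDH covariate.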

Additional observations from a re-analysis of the deposited data

How the results depend on the processing

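Of 404 recomputed COXFA4L3 values, 401 stayed on their side of the threshold or moved by less than the replicate SD. Differences near 0 that did not pass changed sign under some of the alternatives. Of the 404, 168 were differences from sham, which have no threshold here. The gene summary, the filter and the fit on fewer arrays could not move these differences, so the count overstates how stable they are. For both doses at 24 h against sham, leaving out 1 array at a time gave -1.59 to -1.30, the latter without replicate 1 of that group. Both doses at 12 h against 5 cGy at 24 h passed with array weights (0.63, adjusted p = 0.0326, limma). It also passed with the replicate number as a block (0.67, adjusted p = 0.0232, limma). This is not independent evidence, since the fall that chose the gene sets the direction of this comparison. Over its 13 alternatives the adjusted p ran from 0.0232 to 0.449. Same-numbered arrays correlated by 0.26 on average in their deviations, against -0.12 for other numbers; 186 of 234 same-numbered pairs were over 0.1, not all, and no label ties a number to a shared batch, so pairing was not assumed. With the block, 22 genes against 0 passed for the averaged priming effect, and 63 against 0 for the comparison 24 h after the first dose. The cause of these changes was not tested. With the block, members called at 24 h after 5 cGy, 2 Gy and both doses were 1, 2 and 3 (complex IV subunits), 7, 6 and 7 (assembly), 2, 6 and 8 (complex I) and 7, 8 and 10 (NF-kB and cytokines), while 12.99%, 14.9% and 19.56% of all genes passed, against 3.11%, 6.06% and 9.92% without it. The lowest counts over the alternatives were 0, except 1 for the last list after both doses. Ranking by 13 group means kept 1 of the 10 most alike genes, and ranking by deviations 0. COXFA4L3 has 1 probe set, so no other could stand in for it. A single probe set and 3 arrays per group limit every value.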
